A study of Rattus norvegicus with 36 samples.

Results

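The kidneys of 3 rats were measured 8 h after the end of a bilateral ischemia, and were set against the kidneys of 3 normal rats. These are 6 of the 31 rats and 9 of the 36 arrays of the series, chosen by the condition and number in their labels. Ischemic rats 1 and 2 and normal rat 2 had 2 arrays each from separate RNA aliquots, which were averaged, and the other rats had 1 array each. The ischemic rats had the blood supply of both kidneys stopped for 40 min and were killed after 8 h of reperfusion, and the normal rats had no treatment. For comparison the series holds 4 rats with the same ischemia studied after 2 h, 3 sham rats (surgery of 40 min, harvest at 8 h), and normal rats 11 and 12, whose arrays share the lot of the sham arrays. All rats were males of 6 to 8 weeks, and the strain is not given in the sources used here. RNA came from a minced portion of each kidney, so that fewer cells of a type and less RNA per cell cannot be told apart. The 1-colour CodeLink arrays carry 9911 oligonucleotide probes, and their number limits the precision. A level below is an intensity given as a multiple of the median of its array, with a floor of 0.1, and a change is the log2 level in ischemic rats minus that in normal rats, with its standard error (SE). The text uses "rose" and "fell" for an adjusted p under 0.05 in limma. Levels of different genes come from different probes and are not compared. The tissue label was set against kidney markers. Aqp1, the water channel of the proximal tubule and thin limb, was at 13.3, 12.6 and 13.5 in ischemic rats and 27.1, 26.8 and 26.5 in normal rats, and Umod, uromodulin of the thick ascending limb, at 28.1, 34.0 and 2.29 in ischemic rats and 8.17, 56.2 and 73.7 in normal rats. Both were above the array median in all 6 rats. Umod was far lower in ischemic rat 3 and normal rat 1 than in the other 4 rats.

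The array of ischemic rat 3 stood apart. Its median correlation with the other arrays of its group was 0.926, where those arrays had 0.988 to 0.990. It had 1.65% of its probes at the floor, against 10.7% to 12.2% on the other ischemic arrays, and its brightest probe reached 322.7 times the median, against 84.0 to 128.9 times. Across probes the median absolute log2 difference was 0.588 between rat 3 and the mean of rats 1 and 2, and 0.116 between rats 1 and 2. Of the 1398 genes that rose with all rats, 1093 rose without rat 3, and of the 1292 that fell, 1145 did. Without rat 3 in all 1292 genes rose and 1627 fell. Values without it are given below for the genes whose change moved by more than 1.5-fold or whose call was lost or gained without it. The array of normal rat 1 also stood apart, by less. Its median correlation with its group was 0.976, against 0.988 to 0.989 on the other normal arrays. It had 8.72% of its probes at the floor, against 10.7% to 12.2%, and its brightest probe reached 180.4 times the median, against 98.9 to 128.6 times. Its deviations from the group mean correlated at 0.651 with those of ischemic rat 3.

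**Figure D1:**
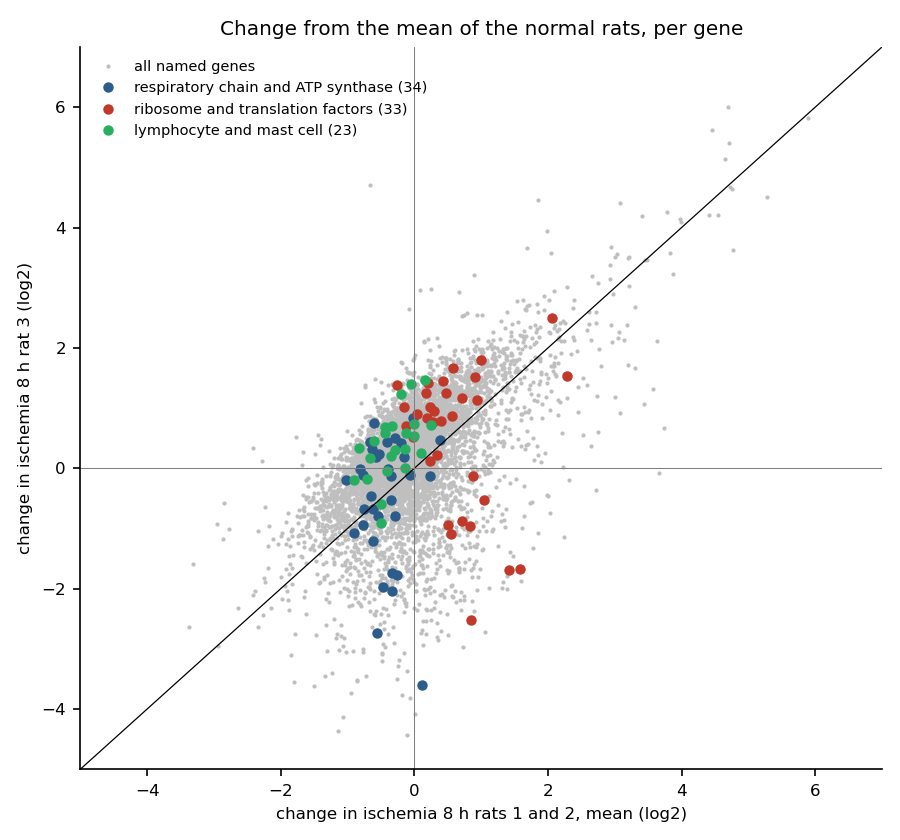
Log2 change from the mean of the 3 normal rats in ischemia 8 h rat 3 (vertical axis) against the mean of ischemia 8 h rats 1 and 2 (horizontal axis), 1 point per gene, with 3 gene lists in colour and the line of equal change. The 6155 points scatter widely about that line, and both axes share the mean of the same normal rats. Rat 3 and the mean of rats 1 and 2 lay on the same side of that normal mean in 3749 genes (60.9%).

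The proximal tubule reabsorbs most of the filtered salt, glucose, amino acids and bicarbonate, makes glucose, and draws its ATP from the oxidation of fatty acids and amino acids in mitochondria. It is among the first parts of the nephron to suffer when blood flow stops. Surviving tubule cells are known to lose parts of their differentiated program, to express stress and injury genes, and later to spread and divide. The thick ascending limb and distal tubule, which recover salt, calcium and magnesium, lie in a poorly oxygenated zone and are also affected.

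In limma, 3947 of 9466 probes tested (41.7%) differed between ischemic and normal kidneys, with 1969 (20.8%) higher and 1978 (20.9%) lower. Among the 6188 genes with a name, each given by its brightest probe, 1398 (22.6%) rose and 1292 (20.9%) fell, and these shares are the background for the gene lists below. The rises were larger than the falls at the extremes. At 4-fold or more 101 genes rose and 24 fell. In 1153 of the genes that rose all 3 ischemic rats lay above all 3 normal rats, and in 964 of those that fell all 3 lay below. Among all 6188 genes, called or not, the 3 ischemic rats lay above in 1266 and below in 1061. The calls and this ordering rest on the same values. The median change over all genes was 0.028 on the log2 scale. Between sham rats and normal rats 11 and 12, 28 probes rose and 5 fell of 9408 tested, and 533 had an unadjusted p under 0.05. That comparison has 3 rats against 2 and larger standard errors, so its counts are not measured against those above.

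**Figure D2:**
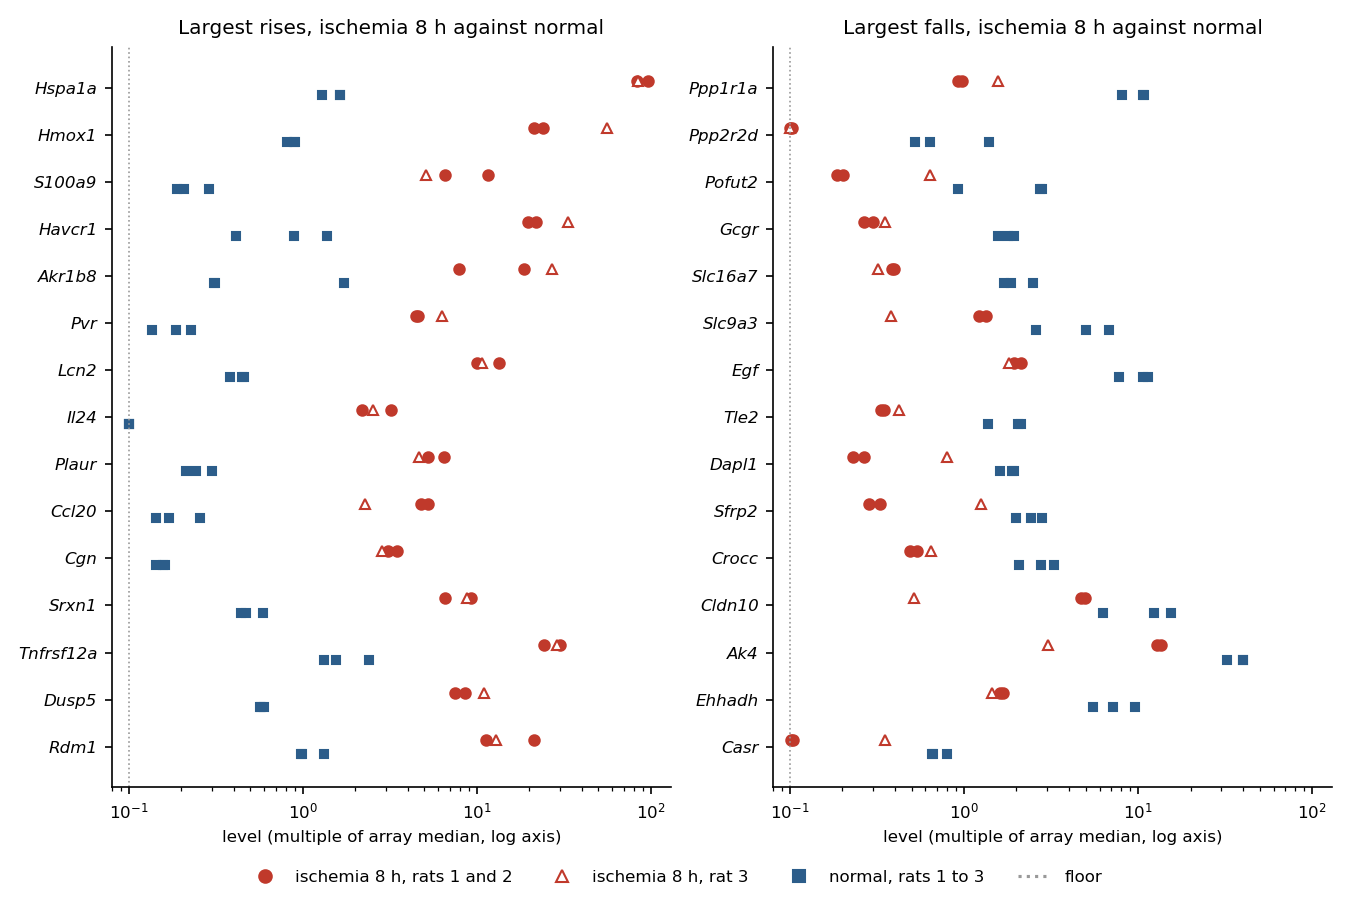
Levels of the 15 largest rises (left panel) and 15 largest falls (right panel) in each rat, as multiples of the array median on a log axis, with ischemia 8 h above normal in each row and ischemia 8 h rat 3 as an open triangle. No ischemic rat overlaps a normal rat in these genes, which follows from how they were chosen, and rat 3 is the lowest of the group by far in Cldn10 and Ak4 and the highest in Sfrp2 and Casr.

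The largest rise was that of the inducible heat shock protein 70 gene Hspa1a, which refolds damaged proteins. Its level was 82.8, 96.4 and 84.8 in ischemic rats 1 to 3, against 1.28, 1.63 and 1.65 in normal rats 1 to 3, and the change was 5.86 ± 0.35 (adjusted p = 2.49e-12). A near-identical neighbour, Hspa1b, may share its probe. Hmox1, the heme-degrading enzyme heme oxygenase, had 21.2, 23.9 and 55.9 in ischemic rats and 0.904, 0.894 and 0.814 in normal rats, a change of 5.13 ± 0.29 (adjusted p = 1.67e-12). Rat 3 was the highest of the 3 ischemic rats. Havcr1, the kidney injury molecule of the proximal tubule that binds dying cells, was at 19.6, 22.0 and 33.6 in ischemic rats, against 0.411, 0.887 and 1.38 in normal rats (4.94 ± 0.41, adjusted p = 8.48e-10). Lcn2, an iron-carrier binding protein made by injured distal nephron and by neutrophils, was at 10.1, 13.4 and 10.7 in ischemic rats and at 0.461, 0.382 and 0.449 in normal rats (4.72 ± 0.23, adjusted p = 1.34e-13). Neither of these injury genes overlapped between groups, and the normal rats were close together in Lcn2 and more spread in Havcr1.

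Pvr, the poliovirus receptor and an adhesion molecule related to nectins, was also among the 15 largest rises, with 4.57, 4.47 and 6.30 in ischemic rats, against 0.187, 0.135 and 0.229 in normal rats (4.81 ± 0.22, adjusted p = 5.80e-14). Plaur, the urokinase receptor, had 6.51, 5.22 and 4.63 in ischemic rats and 0.302, 0.213 and 0.245 in normal rats (4.43 ± 0.21, adjusted p = 1.34e-13). Cgn encodes cingulin of the tight junction plaque, and its level was 3.46, 3.10 and 2.84 in ischemic rats, against 0.158, 0.143 and 0.162 in normal rats (4.34 ± 0.18, adjusted p = 1.82e-14). Within each group these 3 genes differed little between rats. Tnfrsf12a, the receptor for the cytokine TWEAK, had 24.4, 30.0 and 29.0 in ischemic rats and 2.41, 1.33 and 1.55 in normal rats (4.02 ± 0.34, adjusted p = 1.34e-09). The remaining genes among the 15 largest rises were S100a9, Il24, Ccl20, Srxn1 and Dusp5, which are described with their groups, and Akr1b8 and Rdm1. Akr1b8, an aldo-keto reductase, had 7.85, 18.6 and 27.2 in ischemic rats, against 0.313, 1.72 and 0.311 in normal rats, a spread that gave a change of 4.85 ± 1.00, and without normal rat 2 it was 5.67. Rdm1, named for a motif of a DNA repair protein, had 11.3, 21.2 and 12.9 in ischemic rats and 1.33, 0.994 and 0.971 in normal rats (3.75 ± 0.21, adjusted p = 1.36e-12). Glycam1, a mucin-like ligand of L-selectin and also a milk protein, rose by 3.48 and is on no list.

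The immediate early genes, transcription factors switched on without new protein synthesis, were still high at 8 h, with 15 of 20 measured genes up, 1 down and a median change of 2.28. Fos, a subunit of the factor AP-1, had 11.1, 9.61 and 12.6 in ischemic rats, against 0.879, 1.31 and 1.20 in normal rats (3.31 ± 0.70, adjusted p = 4.58e-04). Its relative Fosl1, which like Fos pairs with Jun proteins, had 2.84, 3.13 and 4.95 in ischemic rats and 0.344, 0.475 and 0.361 in normal rats (3.18 ± 0.25, adjusted p = 2.79e-10). In both genes the groups were far apart and the 3 ischemic rats close together. Klf6 (3.30 ± 0.43), a zinc finger factor, Egr1 (2.68 ± 0.60), a growth response factor, Atf3 (2.61 ± 0.48), a stress factor, and Junb (2.48 ± 0.38) also rose. Myc, which drives growth and ribosome production, changed by 2.82 ± 0.52, and by 3.57 without ischemic rat 3. Jun itself was at 0.83 (adjusted p = 0.0748) and Jund at -0.05 (adjusted p = 0.853), so neither passed. The exception in direction was Klf9, a target of glucocorticoids, at -0.76, which did not pass without ischemic rat 1 (adjusted p = 0.0546). In the sham rats 3 of the 20 genes rose, and the list median was 0.53. In Fos, Egr1 and Myc the change in ischemic rats lay above that in sham rats from normal rats 11 and 12. The difference of these changes did not pass in limma (adjusted p = 0.346 for Fos, 0.122 for Egr1 and 0.0602 for Myc). For these 3 genes a rise beyond that of surgery was therefore not called. In none of them did the sham change pass (adjusted p = 0.743 for Fos). Fos was at 1.09, 0.764 and 1.70 in sham rats and 0.46 and 0.22 in normal rats 11 and 12. Egr1 was at 2.18, 1.76 and 1.81 in ischemic rats and 0.26, 0.14 and 0.23 in sham rats. Myc was at 3.26, 3.30 and 0.689 in ischemic rats and 0.215, 0.153 and 0.182 in sham rats, whose arrays form another lot. The SE of the difference of changes was 1.055 for Fos, 0.902 for Egr1 and 0.777 for Myc.

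Of 7 measured phosphatases and inhibitors that switch off MAP kinase signalling, 5 rose and none fell. Dusp5, a nuclear phosphatase of ERK, had 7.45, 8.58 and 11.1 in ischemic rats, against 0.569, 0.597 and 0.576 in normal rats (3.94 ± 0.31, adjusted p = 3.47e-10). Dusp8 (1.56 ± 0.18) and Dusp14 (0.67 ± 0.16), which act on stress-activated kinases and others, and Spry1 (0.76 ± 0.19), an inhibitor of growth factor receptors, rose by smaller amounts. Dusp4 was at -0.01 and Dusp2 at -0.04, and neither passed.

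The heat shock proteins rose in 9 of 12 measured genes and fell in 1, with a median change of 0.82. Besides Hspa1a, the small heat shock proteins Cryab (1.57 ± 0.19) and Hspb8 (1.36 ± 0.24) and the co-chaperone Stip1 (1.38 ± 0.15) rose. The mitochondrial chaperonin Hspd1 had 54.5, 61.7 and 44.4 in ischemic rats, against 31.1, 29.6 and 28.1 in normal rats (0.84 ± 0.12, adjusted p = 2.07e-06), with all 3 ischemic rats above the normal rats. Hsf1, the factor that switches these genes on, rose by 0.50 ± 0.12. Hspa4 was at -0.60 (adjusted p = 0.265) and at 0.16 without ischemic rat 3 (adjusted p = 0.734), and passed in neither case. The gene that fell was Hspb6 (-0.76 ± 0.26), a small heat shock protein of smooth muscle, which did not pass without normal rat 3, ischemic rat 1 or ischemic rat 2, with adjusted p of 0.0580, 0.131 and 0.141.

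Heat shock factor is known to bind inverted GAA repeats and AP-1 to bind the letters TGANTCA, and promoters of a few genes were read for these because members of both gene groups moved together. The windows surround the start of each gene in RefSeq (assembly GRCr8) and lie mostly before it, on the strand of the gene, and both strands were searched. The heat shock pair GAANNTTC stood in 7 of 10 heat shock gene windows (70%), against 8.38% of all 27457 windows, and the pair TTCNNGAA in 6 of 10 (60%), against 8.62%. Both pairs can share a GAA or TTC triplet, and the windows of Hspd1 and Hspe1, which lie head to head, overlap and hold the same letters. The AP-1 letters stood in 7.39% of all windows and in 2 of the 13 windows found for the 15 largest rises (15.4%). They stood in 1 of 14 windows of immediate early genes (7.14%) and in 0 of the 10 whose genes rose. Each heat shock pair stood in 1 of the 13 windows of the largest rises (7.69%), near its share of all windows. The windows of Havcr1, Srxn1 and Plaur are shown because they are those of the 13 that hold a match, and that of Hspe1, which lies outside the largest rises and was chosen after its matches were seen, shows the dense repeats of a chaperone promoter. Capitals mark the heat shock pairs in Hspe1 and Havcr1 and the AP-1 letters in Srxn1 and Plaur. The Hspe1 window is at chr9:64084077-64084376, that of Havcr1 at chr10:31629528-31629827, that of Srxn1 at chr3:161064562-161064861 and that of Plaur at chr1:89181113-89181412, all on the plus strand.
Hspe1: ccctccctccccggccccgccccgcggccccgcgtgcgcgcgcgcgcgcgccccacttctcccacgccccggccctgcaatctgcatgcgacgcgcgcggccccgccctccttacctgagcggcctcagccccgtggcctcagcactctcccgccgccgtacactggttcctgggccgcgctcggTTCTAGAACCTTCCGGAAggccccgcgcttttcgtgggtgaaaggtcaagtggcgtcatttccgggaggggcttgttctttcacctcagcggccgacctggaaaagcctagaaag
Havcr1: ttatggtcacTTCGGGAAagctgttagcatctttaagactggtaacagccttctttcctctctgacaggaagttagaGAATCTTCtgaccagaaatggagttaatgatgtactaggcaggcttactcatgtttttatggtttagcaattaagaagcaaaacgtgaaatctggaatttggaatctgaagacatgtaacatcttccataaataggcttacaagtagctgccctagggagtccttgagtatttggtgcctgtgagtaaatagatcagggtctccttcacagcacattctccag
Srxn1: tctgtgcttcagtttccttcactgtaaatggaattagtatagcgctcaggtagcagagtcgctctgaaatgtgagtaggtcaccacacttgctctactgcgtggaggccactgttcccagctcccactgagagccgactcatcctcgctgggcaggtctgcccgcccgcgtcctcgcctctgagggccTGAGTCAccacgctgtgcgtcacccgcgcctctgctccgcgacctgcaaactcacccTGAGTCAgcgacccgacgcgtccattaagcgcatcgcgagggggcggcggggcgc
Plaur: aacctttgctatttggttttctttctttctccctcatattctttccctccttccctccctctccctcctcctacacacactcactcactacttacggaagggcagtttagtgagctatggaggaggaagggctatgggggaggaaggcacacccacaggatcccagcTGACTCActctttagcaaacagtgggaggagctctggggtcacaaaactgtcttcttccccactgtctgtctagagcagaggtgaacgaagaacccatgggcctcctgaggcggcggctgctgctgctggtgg
These are matches of letters and not measured binding sites. Hspe1 holds 1 GAANNTTC and 2 TTCNNGAA pairs within a single stretch and Havcr1 1 of each at separate places, while Srxn1 holds 2 AP-1 matches and Plaur 1. The window of Hspa1a holds none of the letters searched, which says only that they are not in these bases. Of the 4 genes, Plaur and Havcr1 are described above. Hspe1, the partner of Hspd1 in the mitochondrial chaperonin, rose by 0.53 ± 0.19 and did not pass without ischemic rat 3 (adjusted p = 0.311), normal rat 3 (0.0673) or normal rat 2 (0.142).

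Genes of the oxidant response split. Srxn1, which repairs oxidised peroxiredoxins, had 6.55, 9.29 and 8.75 in ischemic rats, against 0.474, 0.592 and 0.440 in normal rats (4.03 ± 0.29, adjusted p = 9.43e-11). Gpx2, a glutathione peroxidase of epithelia, had 18.3, 14.8 and 23.4 in ischemic rats and 2.98, 2.77 and 1.06 in normal rats (3.17 ± 0.59, adjusted p = 1.05e-04). Gpx2 was higher in all 3 ischemic rats, as was Nqo1, a quinone reductase (1.82 ± 0.39), while Srxn1 was picked without overlap. Txnrd1, thioredoxin reductase, rose by 2.34 ± 0.34, and by 1.69 without rat 3. In the whole list 7 of 23 genes rose and 4 fell, close to the background. The number that fell was 8 without ischemic rat 3 and 2 without ischemic rat 1 or without normal rat 1. Gclc, the catalytic subunit that makes glutathione, fell by 0.84 ± 0.19, and the extracellular superoxide dismutase Sod3 fell by 0.96 ± 0.16. Nfe2l2, the factor behind much of this response, was at 0.31 (adjusted p = 0.0713), or 0.44 without ischemic rat 1 (adjusted p = 0.0155). The metallothionein Mt1 was at -0.19 (adjusted p = 0.601), or -0.68 without ischemic rat 3 (adjusted p = 0.00848). The core letters TGACNNNGC of the antioxidant response element, which can overlap the AP-1 letters, stood in 7 of 19 windows of the list (36.8%), against 12.2% of all windows. They stood in 3 of the 5 windows found for list genes that rose. Of the 13 windows found for the 15 largest rises, that of Srxn1 among them, 0 held these letters.

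Tubular injury genes rose in 17 of 23 measured cases and none fell, with a median of 1.66. Clu, a secreted chaperone shed by damaged tubules, had 35.1, 19.8 and 9.24 in ischemic rats, against 1.82, 2.48 and 2.15 in normal rats (3.12 ± 0.33, adjusted p = 3.40e-08). Cd44, a hyaluronan receptor, had 3.14, 2.53 and 1.56 in ischemic rats and 0.369, 0.350 and 0.373 in normal rats (2.67 ± 0.19, adjusted p = 5.93e-11). Lgals3, the lectin galectin 3, rose by 2.92 ± 0.24, Anxa1, a membrane-binding protein that dampens inflammation, by 2.21 ± 0.19, and Vim, an intermediate filament of mesenchymal and dividing tubule cells, by 1.25 ± 0.15. In these 5 genes the groups did not overlap. S100a10 rose by 2.71 ± 0.55, which was 3.73 without ischemic rat 3 and 2.07 without normal rat 1, and its partner Anxa2 by 2.36 ± 0.38, which was 3.07 without ischemic rat 3. The matricellular genes Ccn1 (0.38, adjusted p = 0.309) and Ccn2 (-0.34, adjusted p = 0.351) did not pass, nor did C3 (-0.12) or Prom1 (-0.29). In sham rats Ccn2 rose by 1.71 against normal rats 11 and 12 (adjusted p = 0.00834).

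Among cytokines and chemokines 15 of 31 measured genes rose and 5 fell, where the number that fell was 2 without ischemic rat 1, ischemic rat 2, normal rat 1 or normal rat 3. Il24, a cytokine of the interleukin 10 family, had 3.19, 2.18 and 2.55 in ischemic rats and was at the floor in all 3 normal rats, at least 26.1-fold lower (adjusted p = 5.80e-14). Ccl20, which attracts dendritic cells and lymphocytes through its receptor CCR6, had 5.25, 4.78 and 2.27 in ischemic rats, against 0.143, 0.170 and 0.257 in normal rats (4.39 ± 0.45, adjusted p = 2.24e-08). Cxcl1, a neutrophil attractant, had 3.52, 3.27 and 2.18 in ischemic rats and 0.220, 0.193 and 0.294 in normal rats (3.66 ± 0.47, adjusted p = 7.91e-07). In Cxcl1 the lowest ischemic rat lay above the highest normal rat, which was required of Il24 and Ccl20 by the way they were picked. Il1b (2.75 ± 0.27) and Il6 (2.80 ± 0.38), which start the acute phase response, and Cxcl10 (1.98 ± 0.24) and Cxcl11 (1.95 ± 0.20), ligands of the lymphocyte receptor CXCR3, also rose. Tnf was at -0.05 (adjusted p = 0.827) and Il1a at -0.10 (adjusted p = 0.787). Cxcl12, which retains stem cells and leukocytes through CXCR4, had 6.66, 7.38 and 10.1 in ischemic rats, against 29.9, 31.5 and 34.5 in normal rats, and fell by 2.01 ± 0.17 (adjusted p = 7.04e-10).

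Downstream of these signals, 19 of 37 genes of STAT3 and NF-kB signalling rose and 4 fell. Receptors that rose include Tnfrsf1a for tumor necrosis factor (1.66 ± 0.27), Il6r (1.04 ± 0.25) and Lifr (1.01 ± 0.14), and the lipopolysaccharide co-receptor Cd14 (2.00 ± 0.26). Stat3 itself had 15.3, 15.4 and 17.9 in ischemic rats, against 10.01, 8.43 and 7.67 in normal rats (0.90 ± 0.13, adjusted p = 2.69e-06). Nfkb1 (0.81 ± 0.16), Rela (0.78 ± 0.09) and the inhibitor Nfkbie (1.79 ± 0.24) rose, while Socs3, a feedback inhibitor of STAT3, was at 0.53 (adjusted p = 0.0555), and passed at 0.72 without ischemic rat 1 (adjusted p = 0.0168), 0.73 without ischemic rat 2 (adjusted p = 0.0145) and 0.69 without normal rat 1 (adjusted p = 0.0245). Tnfrsf11b, the decoy receptor osteoprotegerin, fell by 1.48 ± 0.23. Of 19 genes of leukocyte adhesion and endothelial activation 13 rose and 1 fell. The leukocyte ligands Icam1 (0.91 ± 0.14), Vcam1 (0.66 ± 0.19) and Sele (1.44 ± 0.31) rose, and the gene that fell was Vwf (2 genes fell without normal rat 2 or 3), the platelet-binding factor of endothelium, with 0.421, 0.860 and 0.428 in ischemic rats and 1.38, 3.11 and 1.56 in normal rats (-1.81 ± 0.34, adjusted p = 1.22e-04). In the complement and coagulation list 11 of 26 rose and 3 fell, or 5 without ischemic rat 3. Tissue factor F3 (1.02 ± 0.23), which starts clotting, and the thrombin receptor F2r (1.34 ± 0.15) rose, as did the plasminogen activator Plat (1.06 ± 0.17), and protein C, Proc, fell by 0.76 ± 0.21.

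Markers of immune cells were counted beside these genes. Of 7 neutrophil genes 4 rose and none fell, with the summed level of the list at 12.7 to 30.5 in ischemic rats and 8.64 to 16.7 in normal rats, and 2 rose without normal rat 3. S100a9, the abundant calcium-binding protein of neutrophils, had 11.6, 6.53 and 5.09 in ischemic rats, against 0.290, 0.189 and 0.207 in normal rats (5.02 ± 0.46, adjusted p = 3.84e-09). It also rose in sham rats, by 2.47 against normal rats 11 and 12 (adjusted p = 0.0277). Itgam (0.03, adjusted p = 0.877), Lyz2 (-0.01, adjusted p = 0.992) and Mmp9 (-0.25, adjusted p = 0.649) of the same list did not pass, and Lyz2 was at 0.76 without ischemic rat 3 (adjusted p = 0.0588). Of 23 macrophage and dendritic cell genes 12 rose and 1 fell, or 3 without ischemic rat 1 and none without ischemic rat 3, with summed levels of 146.2 to 156.5 in ischemic rats and 116.6 to 126.6 in normal rats. The complement genes C1qa (1.19 ± 0.25), C1qb (1.83 ± 0.24) and C1qc (1.41 ± 0.23), which macrophages make, and Gpnmb (2.81 ± 0.28) rose. Csf1r (0.05, adjusted p = 0.770), the pan-leukocyte gene Ptprc (-0.30, adjusted p = 0.178) and Cd74 of antigen presentation (-0.45, adjusted p = 0.0555) did not pass. Without ischemic rat 1 Ptprc was at -0.51 (adjusted p = 0.0215) and Cd74 at -0.53 (adjusted p = 0.0412). Of 23 lymphocyte and mast cell genes none rose and 2 fell. Without ischemic rat 3, 7 fell, without any other rat of the 6 left out in turn 1 fell, and 1 or 2 rose without ischemic rats 1 or 2 or normal rat 3. The list had summed levels of 5.75 to 8.58 in ischemic rats and 7.70 to 8.24 in normal rats. The part of these cells in the rises above was not tested.

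Genes that react to damaged DNA and cell death rose in part. Of 15 measured targets of p53, 9 rose and 3 fell, with a median of 0.96. Cdkn1a, the cell cycle inhibitor p21, had 8.03, 11.6 and 11.9 in ischemic rats, against 2.51, 2.08 and 1.25 in normal rats (2.47 ± 0.35, adjusted p = 3.31e-06). Plk2, a stress kinase, had 2.09, 2.40 and 5.68 in ischemic rats and 0.371, 0.188 and 0.271 in normal rats (3.52 ± 0.42, adjusted p = 2.84e-07). Both were higher in every ischemic rat than in any normal rat, and Cdkn1a also rose in sham rats, by 1.79 against normal rats 11 and 12 (adjusted p = 0.0424). Gadd45a (1.61 ± 0.25), Ccng1 (1.19 ± 0.21) and Tigar (1.54 ± 0.13), which lowers glycolytic flux, rose, while Sesn1, a sestrin that restrains mTOR, fell by 1.74 ± 0.12. Of 21 Bcl2 family, caspase and related genes 10 rose and 1 fell, or 2 without ischemic rat 3. Those that rose include the survival genes Mcl1 (1.01 ± 0.18) and Bcl2l1 (0.77 ± 0.23) and the death genes Bak1 (1.49 ± 0.17) and Ripk3 (2.30 ± 0.13), the kinase of necroptosis. Ripk3 had 4.22, 3.53 and 4.53 in ischemic rats, against 0.816, 0.75 and 0.923 in normal rats (adjusted p = 1.67e-12). Aifm1, an oxidoreductase of mitochondria that can be released in cell death, fell by 1.05 ± 0.12. Of 30 cell cycle genes 5 rose and 7 fell, near the background. Pcna (1.17 ± 0.23) and Mcm4 (0.80 ± 0.21), which act at replication forks, rose. Cdk1 (-0.43, adjusted p = 0.175, or -0.69 and 0.0368 without normal rat 3) and Ccna2 (-0.26, adjusted p = 0.431) did not pass, and the retinoblastoma relative Rbl2 fell by 1.10 ± 0.12.

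Many genes of the machinery of protein synthesis rose. Of 17 genes of the nucleolus and ribosome production 13 rose and none fell, with a median of 1.31, and the count was 13 also without ischemic rat 3. The summed level of the list was 169.5 to 216.5 in ischemic rats and 74.9 to 78.8 in normal rats. Nop58, a core protein of the RNA particles that modify ribosomal RNA, had 19.4, 20.9 and 19.6 in ischemic rats, against 5.10, 5.54 and 5.82 in normal rats (1.86 ± 0.10, adjusted p = 1.17e-12). Npm1, nucleophosmin, had 50.3, 52.2 and 86.4 in ischemic rats and 21.7, 17.5 and 17.5 in normal rats (1.70 ± 0.14, adjusted p = 5.52e-10). The groups were apart in both. Rrp9 (1.97 ± 0.11), the methyltransferase Fbl (1.43 ± 0.11), nucleolin Ncl (1.06 ± 0.10) and the RNA polymerase I subunit Polr1b (1.39 ± 0.18) rose, and Polr1c was at 0.20 (adjusted p = 0.447), or 0.57 without ischemic rat 3 (adjusted p = 0.00150). Srm, spermidine synthase, rose by 1.99 ± 0.18, while Odc1, which makes its substrate, was at 0.04 (adjusted p = 0.879). At 2 h of reperfusion 4 of these 17 genes had risen and 1 had fallen against normal, with a median of 0.12, where 8.00% of all named genes had risen and 6.09% had fallen.

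**Figure D3:**
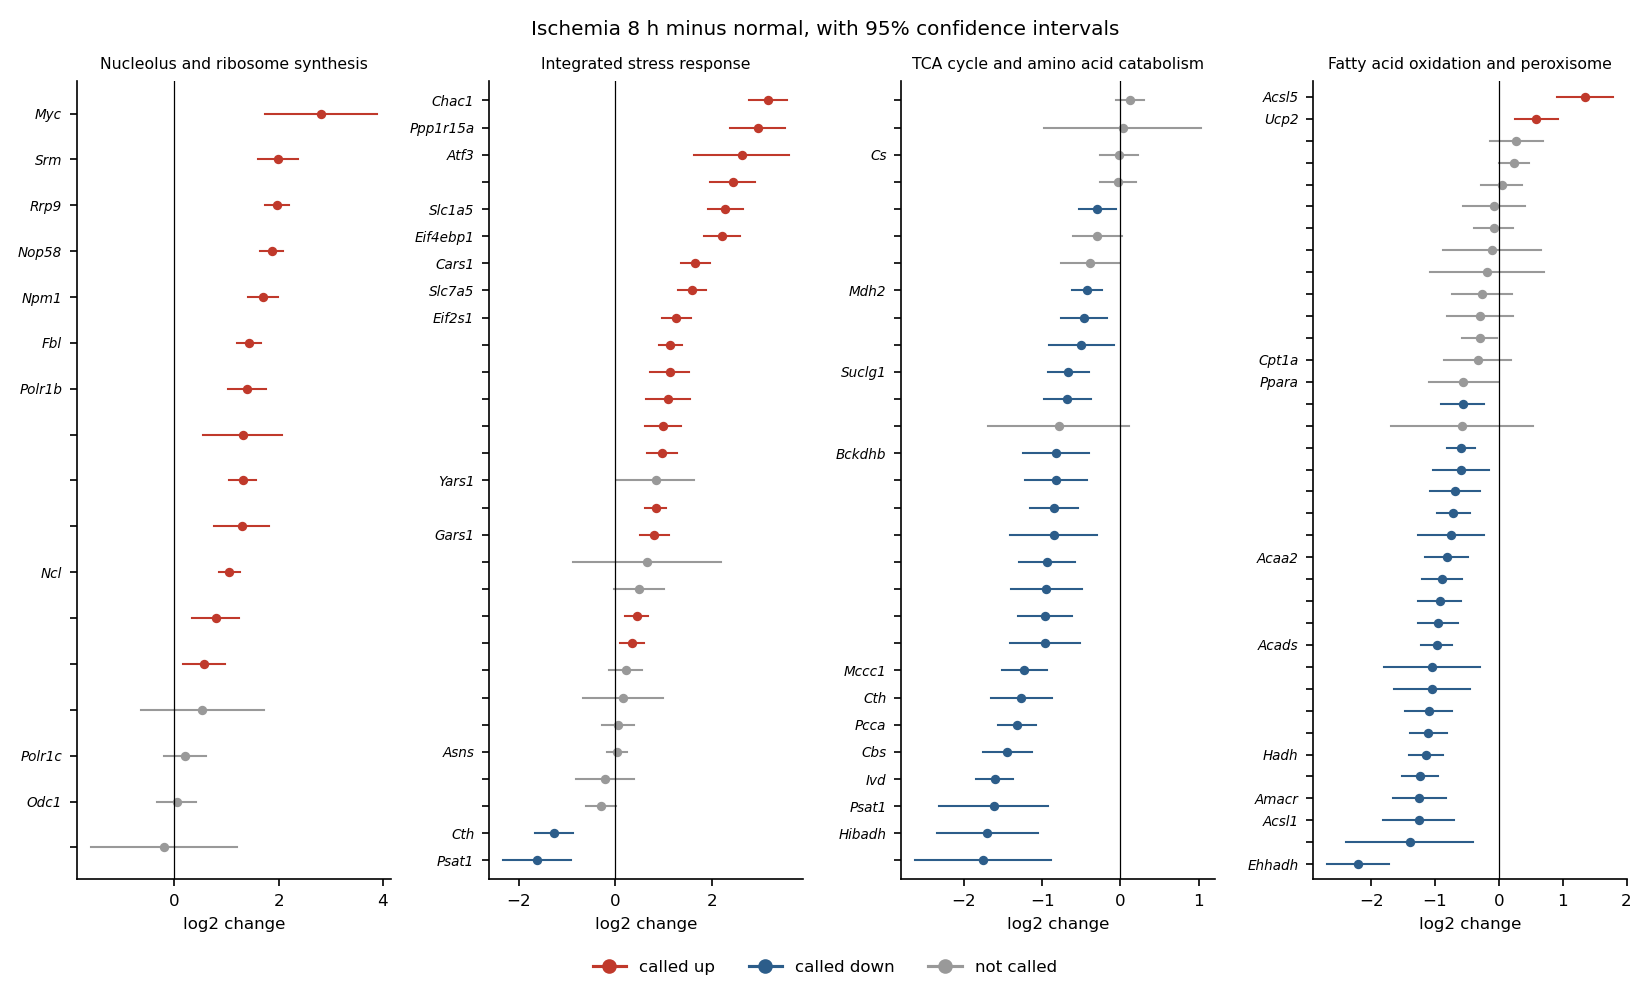
Log2 change, ischemia 8 h minus normal, with its 95% confidence interval for every measured gene of 4 lists, coloured by call, with names at genes given in the text. In the nucleolus list 13 of 17 genes and in the integrated stress response list 18 of 29 genes lie to the right of 0 as called, and in the lists of the tricarboxylic acid (TCA) cycle with amino acid catabolism (22 of 29) and fatty acid oxidation (21 of 36) the called genes lie mostly to the left.

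In the integrated stress response, in which a phosphorylated initiation factor slows translation while the factor ATF4 switches on amino acid genes, 18 of 29 measured genes rose and 2 fell. Chac1, which breaks down glutathione, had 1.54, 1.93 and 1.53 in ischemic rats, against 0.213, 0.194 and 0.158 in normal rats (3.15 ± 0.19, adjusted p = 3.80e-12). Ppp1r15a, the phosphatase subunit GADD34 that restarts translation, had 3.12, 3.37 and 3.08 in ischemic rats and 0.388, 0.437 and 0.416 in normal rats (2.95 ± 0.27, adjusted p = 5.42e-09). Both were above normal in every ischemic rat. The translation repressor Eif4ebp1 rose by 2.21 ± 0.18, and 6 of the 7 measured aminoacyl-tRNA synthetases of the list rose, by 0.81 for Gars1 to 1.66 for Cars1, while Yars1 was at 0.83 (adjusted p = 0.0891), or 1.65 without ischemic rat 3 (adjusted p = 3.56e-06). Asns, asparagine synthetase and a standard target of ATF4, was at 0.04 ± 0.10 (adjusted p = 0.770). Cth, which makes cysteine, fell by 1.27 ± 0.19, and Psat1 of serine synthesis fell by 1.62 ± 0.34, or 0.92 without ischemic rat 3. The amino acid importers Slc7a5 (1.59 ± 0.14) and Slc1a5 (2.28 ± 0.18), for large neutral amino acids and glutamine, rose.

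Chaperones of the endoplasmic reticulum rose in 14 of 23 genes and none fell, and 9 rose without normal rat 3. Dnajb9 (1.86 ± 0.24), Creld2 (1.33 ± 0.23), Hspa5 (1.08 ± 0.18), the chief chaperone BiP, and Pdia4 (1.06 ± 0.17), a disulfide isomerase, were among them. Herpud1, which takes part in the removal of misfolded proteins, was at 0.12 (adjusted p = 0.612). Of 34 proteasome and ubiquitin genes 23 rose and 1 fell, by small amounts (list median 0.44), and 15 rose without ischemic rat 3 and 13 without normal rat 3. The subunit Psmd1 had 1.07, 1.13 and 2.25 in ischemic rats, against 0.945, 0.764 and 0.825 in normal rats (0.73 ± 0.18, adjusted p = 0.00163), and the immune subunit Psmb10 rose by 1.13 ± 0.18. Of 33 ribosome and translation factor genes 19 rose and none fell, among them Eif2b3 (2.04 ± 0.30), part of the exchange factor of initiation, Eif2s1 (1.27 ± 0.15), the subunit whose phosphorylation slows initiation, and the ribosomal protein Rpl28 (1.11 ± 0.17).

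Genes of cell shape and junctions rose in 30 of 46 cases and fell in 5, or 25 and 5 without ischemic rat 3. The tight junction claudins Cldn7 and Cldn3, whose normal home is the distal nephron and collecting duct, were higher. Cldn7 had 9.61, 10.4 and 14.4 in ischemic rats, against 1.63, 1.28 and 0.870 in normal rats (3.21 ± 0.20, adjusted p = 5.28e-12). Cldn3 had 4.71, 5.70 and 6.09 in ischemic rats and 1.35, 1.22 and 0.914 in normal rats (2.25 ± 0.30, adjusted p = 1.40e-06). The cadherins diverged, with Cdh1 (E-cadherin) at 1.58 ± 0.17 and Cdh2 (N-cadherin, which is found in the rat proximal tubule) at -1.18 ± 0.22, and their groups did not overlap. Those that rose include Vcl (vinculin, 1.22 ± 0.17), Flna (filamin, 1.03 ± 0.12), Tpm4 (tropomyosin, 1.42 ± 0.13) and Arpc1b, a subunit of the complex that branches actin (1.48 ± 0.17). The tubulins Tuba1a (1.29 ± 0.16) and Tubb5 (1.11 ± 0.19) and the desmosome genes Dsp (1.19 ± 0.20) and Pkp2 (1.22 ± 0.17) rose too. Ocln, occludin, was at -0.17 (adjusted p = 0.495) and Ezr, ezrin of the brush border, at 0.16 (adjusted p = 0.264), or 0.29 without ischemic rat 1 (adjusted p = 0.0363). Vil1, villin of the brush border, has 2 probes of which 1 rose and 1 fell, so that no direction is given. In the matrix list 12 of 42 genes rose and 3 fell. The integrins Itgav (1.47 ± 0.18) and Itgb1 (1.29 ± 0.10) and the protease Adamts1 (2.86 ± 0.41) rose, while collagen Col1a1 (-0.02, adjusted p = 0.942) and fibronectin Fn1 (0.25, adjusted p = 0.206) did not pass.

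Growth factors of the EGF family changed in opposite directions. Egf, made as a membrane-bound precursor in the thick ascending limb and distal tubule, had 2.14, 1.94 and 1.82 in ischemic rats, against 7.81, 11.5 and 10.6 in normal rats, and fell by 2.33 ± 0.19 (adjusted p = 4.62e-10). Areg, amphiregulin, had 0.837, 0.840 and 0.999 in ischemic rats and 0.181, 0.175 and 0.283 in normal rats (2.10 ± 0.51, adjusted p = 0.00176). Their receptor Egfr had 0.504, 0.511 and 0.968 in ischemic rats, against 0.248, 0.145 and 0.174 in normal rats (1.77 ± 0.23, adjusted p = 7.87e-07). The groups did not overlap in Areg and Egfr, and Egf was picked without overlap. Nrg1 (1.68 ± 0.30), Met, the receptor of hepatocyte growth factor (1.47 ± 0.22), and the transforming growth factors Tgfb1 (1.18 ± 0.14), Tgfb2 (1.30 ± 0.34) and Tgfb3 (1.02 ± 0.18) rose. Igfbp5, which binds insulin-like growth factors, fell by 1.71 ± 0.17. In the list of 37 growth factor genes 15 rose and 4 fell, or 17 and 7 without ischemic rat 3.

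Proximal tubule genes fell in 29 of 44 measured cases and rose in 1, with a median of -0.85, against 20.9% that fell among all genes. Without ischemic rat 3, 32 fell and none rose, and none rose either without ischemic rat 2 or normal rats 2 or 3. The summed level of the list was 503.9 to 971.6 in ischemic rats and 783.7 to 1132 in normal rats, ranges that overlap. Slc9a3, the sodium-proton exchanger that drives bicarbonate recovery, had 1.23, 1.33 and 0.378 in ischemic rats, against 2.58, 5.04 and 6.76 in normal rats, and changed by -2.39 ± 0.34, or by -1.80 without ischemic rat 3. Lrp2, megalin, the endocytic receptor for filtered protein, had 21.5, 23.1 and 41.6 in ischemic rats and 66.1, 53.9 and 64.1 in normal rats (-1.15 ± 0.19, adjusted p = 2.49e-05). Its partner Cubn fell by 0.96 ± 0.16, and Aqp1 by 1.03 ± 0.15. The carriers of dicarboxylates, Slc13a2 (-1.46 ± 0.14), of carnitine, Slc22a5 (-1.27 ± 0.21), and of organic anions, Slco1a1 (-1.19 ± 0.23), were lower in all 3 ischemic rats. Gatm, which makes the creatine precursor in the kidney, had 25.5, 24.6 and 18.0 in ischemic rats and 78.9, 58.8 and 63.8 in normal rats (-1.57 ± 0.18, adjusted p = 1.39e-07). Kmo of tryptophan breakdown fell by 1.89 ± 0.31. Slc22a6, the anion transporter OAT1, was at -0.50 (adjusted p = 0.0743), and passed at -0.85 without ischemic rat 3 (adjusted p = 8.27e-04) and at -0.64 without normal rat 2 (adjusted p = 0.0463). Ggt1, which splits glutathione at the brush border, was at -0.60 (adjusted p = 0.0772), and passed at -0.96 without ischemic rat 3 (adjusted p = 0.00351). Ace was at 0.03 (adjusted p = 0.878).

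Genes of glucose production fell at several steps, with 13 of 19 genes down and 3 up. Gcgr, the glucagon receptor, had 0.300, 0.267 and 0.352 in ischemic rats, against 1.58, 1.78 and 1.94 in normal rats (-2.53 ± 0.14, adjusted p = 1.08e-12). G6pc1, the last enzyme, which frees glucose from its phosphate, had 10.3, 7.21 and 4.45 in ischemic rats and 27, 30.0 and 33.0 in normal rats (-2.11 ± 0.27, adjusted p = 6.20e-07). The rate-limiting enzyme Pck1 had 46.2, 43.4 and 59.3 in ischemic rats, against 139, 89.2 and 87.7 in normal rats (-1.07 ± 0.29, adjusted p = 0.00498). Every ischemic rat lay below every normal rat in G6pc1 and Pck1, and Gcgr was picked without overlap. Pc, pyruvate carboxylase, fell by 0.94 ± 0.14, and Mdh1 by 1.24 ± 0.25. Among those that rose were the glucose carrier Slc2a2 (1.47 ± 0.30) and the coactivator Ppargc1a (1.21 ± 0.24).

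The breakdown of amino acids and the tricarboxylic acid cycle held the largest share of falls among the 51 lists, 22 of 29 genes with none up and a median of -0.82, and the count was 22 without ischemic rat 3 as well. Summed levels were 204.4 to 251.8 in ischemic rats and 361.6 to 414.6 in normal rats. The enzymes of branched-chain amino acids include Ivd, with 3.47, 3.63 and 4.10 in ischemic rats and 11.9, 10.1 and 12.1 in normal rats (-1.61 ± 0.11, adjusted p = 7.11e-11). Pcca, a subunit of propionyl-CoA carboxylase, had 4.70, 4.47 and 3.57 in ischemic rats, against 11.5, 9.99 and 10.2 in normal rats (-1.32 ± 0.12, adjusted p = 2.48e-09). Mccc1 fell by 1.23 ± 0.14, Bckdhb by 0.82 ± 0.20, and Hibadh by 1.70 ± 0.31, or 1.03 without ischemic rat 3. Cbs, which starts the path from homocysteine to cysteine, fell by 1.44 ± 0.15. Of the cycle itself Suclg1 (-0.66 ± 0.13) and Mdh2 (-0.43 ± 0.09) were lower and citrate synthase Cs was at -0.02 (adjusted p = 0.917).

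Fatty acid oxidation fell in 21 of 36 genes and rose in 2, with a median of -0.64. Ehhadh, the bifunctional enzyme of peroxisomes, had 1.61, 1.67 and 1.45 in ischemic rats, against 5.51, 7.18 and 9.62 in normal rats (-2.20 ± 0.23, adjusted p = 4.50e-08). Amacr, a racemase of branched fatty acids, had 2.46, 2.58 and 2.05 in ischemic rats and 6.03, 5.37 and 5.36 in normal rats (-1.25 ± 0.20, adjusted p = 2.23e-05). The groups were apart in Amacr, and Ehhadh was picked without overlap. The mitochondrial enzymes Hadh (-1.14 ± 0.13), Acads (-0.97 ± 0.12) and Acaa2 (-0.82 ± 0.16) and the fatty acid activating enzyme Acsl1 (-1.26 ± 0.27) fell, and the carnitine step Cpt1a was at -0.33 (adjusted p = 0.314), but passed at -0.69 without ischemic rat 3 (adjusted p = 0.0202). The 2 genes that rose were another activating enzyme, Acsl5 (1.35 ± 0.21), and the uncoupling protein Ucp2 (0.59 ± 0.16). Ppara, the factor that governs this pathway, was at -0.56 (adjusted p = 0.0913), and passed at -0.83 without ischemic rat 3 (adjusted p = 0.0140). In the respiratory chain 17 of 34 genes fell and 1 rose, with a median of -0.44, or 21 and none without ischemic rat 3, and none rose without ischemic rat 1 or normal rats 2 or 3. Ndufa10 of complex 1 (-0.82 ± 0.13), Sdhd of succinate dehydrogenase (-0.97 ± 0.10) and Uqcrb of complex 3 (-0.83 ± 0.10) fell. Ak4, a mitochondrial adenylate kinase, had 13.5, 12.9 and 3.03 in ischemic rats, against 32.3, 40.0 and 40.2 in normal rats, and its change of -2.21 ± 0.33 was -1.50 without ischemic rat 3.

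Of 29 genes of glycolysis and hypoxia 10 rose and 6 fell. Pkm, pyruvate kinase of non-gluconeogenic tissues, had 18.1, 15.3 and 15.5 in ischemic rats, against 5.12, 4.36 and 4.16 in normal rats (1.84 ± 0.15, adjusted p = 3.57e-10). Ldha, the lactate dehydrogenase of anaerobic glycolysis, had 58.4, 66.3 and 125 in ischemic rats and 36.0, 23.9 and 28.2 in normal rats (1.44 ± 0.21, adjusted p = 4.94e-06). Both rose without overlap. Hk2, the hexokinase induced by low oxygen and growth signals, was at 0.291, 0.194 and 0.263 in ischemic rats and at the floor in all 3 normal rats, at least 2.46-fold lower (adjusted p = 2.34e-07). The vasodilator peptide Adm rose by 1.92 ± 0.20, while Vegfa, a classic target of hypoxia, fell by 0.86 ± 0.16, and Bnip3l fell by 0.81 ± 0.09. Egln3 (0.30, adjusted p = 0.354) and Pdk1 (-0.18, adjusted p = 0.302), also targets of hypoxia, did not pass with all rats, and Pdk1 passed at -0.41 without ischemic rat 3 (adjusted p = 0.00441).

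In the thick ascending limb and distal tubule 13 of 23 genes fell and 2 rose, with a median of -0.84, and 1 rose without ischemic rats 1 or 2 or normal rats 1 or 2. Ppp1r1a, an inhibitor of protein phosphatase 1 and the largest fall of all, had 0.975, 0.920 and 1.57 in ischemic rats, against 10.7, 10.8 and 8.13 in normal rats (-3.13 ± 0.17, adjusted p = 1.08e-12). Slc12a1, the sodium-potassium-chloride cotransporter blocked by loop diuretics, had 7.28, 6.89 and 17.5 in ischemic rats and 44.2, 32.3 and 32.9 in normal rats (-1.91 ± 0.23, adjusted p = 2.17e-07). Slc16a7, a monocarboxylate carrier, had 0.395, 0.386 and 0.319 in ischemic rats, against 1.70, 2.49 and 1.86 in normal rats (-2.45 ± 0.17, adjusted p = 3.67e-11). Slc12a1 did not overlap between groups, and Ppp1r1a and Slc16a7 were picked without overlap. Casr, the calcium sensor, changed by -2.18 ± 0.32, or -2.77 without ischemic rat 3, and Cldn10, a claudin of the paracellular sodium path, by -2.22 ± 0.51, or -1.15 without it. Bsnd, the barttin subunit of chloride channels, fell by 1.09 ± 0.14. Umod was at -1.32 ± 0.70 (adjusted p = 0.139), and single rats decided this value. It was -0.07 without ischemic rat 3 (adjusted p = 0.956), -0.72 without normal rat 3 (adjusted p = 0.485), -2.01 without ischemic rat 2 (adjusted p = 0.0313) and -2.31 without normal rat 1 (adjusted p = 0.00685). Atp1b1, a subunit of the sodium pump (0.16, adjusted p = 0.664), did not pass. Of 13 collecting duct genes 6 fell and 2 rose. Without ischemic rat 3, 8 fell and 1 rose, and 1 or none rose with any other rat left out. The mineralocorticoid receptor Nr3c2 (-1.41 ± 0.18) and the vasopressin receptor Avpr2 (-0.71 ± 0.21) fell, and Hsd11b2, which shields the mineralocorticoid receptor from glucocorticoid, fell by 1.44 ± 0.19.

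Of 30 transcription factors of tubule cells and of injury 13 rose and 7 fell. Hnf4a, a master factor of the proximal tubule, had 1.06, 1.05 and 2.16 in ischemic rats, against 3.18, 3.49 and 3.81 in normal rats (-1.38 ± 0.25, adjusted p = 9.15e-05). Every ischemic rat lay below every normal rat. The nuclear receptors Nr1h4 for bile acids (-1.03 ± 0.19) and Nr1h3 for oxysterols (-1.08 ± 0.11) fell. Pax8, a factor of kidney development that persists in adult tubules, rose by 1.04 ± 0.26, Tfap2a by 1.18 ± 0.23 and Id1, an inhibitor of differentiation, by 1.55 ± 0.25. Pparg (0.41, adjusted p = 0.352) and the vitamin D receptor Vdr (-0.26, adjusted p = 0.206) did not pass, and Vdr was at -0.44 without normal rat 1 (adjusted p = 0.0414).

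The calcium and vitamin D list was mixed, with 6 of 21 up and 7 down. Pth1r, the receptor of parathyroid hormone, fell by 1.43 ± 0.12, the vitamin D activating enzyme Cyp27b1 by 0.60 ± 0.14 and klotho, Kl, by 0.54 ± 0.15. The phosphate carrier Slc20a1 rose by 2.13 ± 0.21, and Pthlh, the parathyroid hormone-like peptide, was at 0.596, 0.397 and 0.225 in ischemic rats and at the floor in normal rats, at least 3.76-fold lower. Among vasoactive genes, with 18 of 46 up and 4 down (2 without normal rats 2 or 3), Edn1, the vasoconstrictor endothelin, had 1.18, 1.31 and 1.5 in ischemic rats, against 0.369, 0.329 and 0.199 in normal rats (2.19 ± 0.19, adjusted p = 1.07e-09). Sphk1, which makes sphingosine phosphate, rose by 2.04 ± 0.21 and the adenosine receptor Adora2a by 1.44 ± 0.23. Drug-handling enzymes fell more often than they rose, with 10 of 28 phase 1 enzymes down and 2 up, and 9 of 21 conjugating enzymes down and 2 up, although 6 phase 1 genes fell without ischemic rat 1 and 1 conjugating gene rose without ischemic rat 3 or normal rat 2. Sult1a1, a sulfotransferase of phenols, fell by 1.75 ± 0.34 and Gstt2 by 1.70 ± 0.31, while the efflux pump Abcc2 had 0.843, 1.26 and 3.01 in ischemic rats and 0.296, 0.246 and 0.218 in normal rats (2.55 ± 0.33, adjusted p = 1.10e-06).

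**Figure D4:**
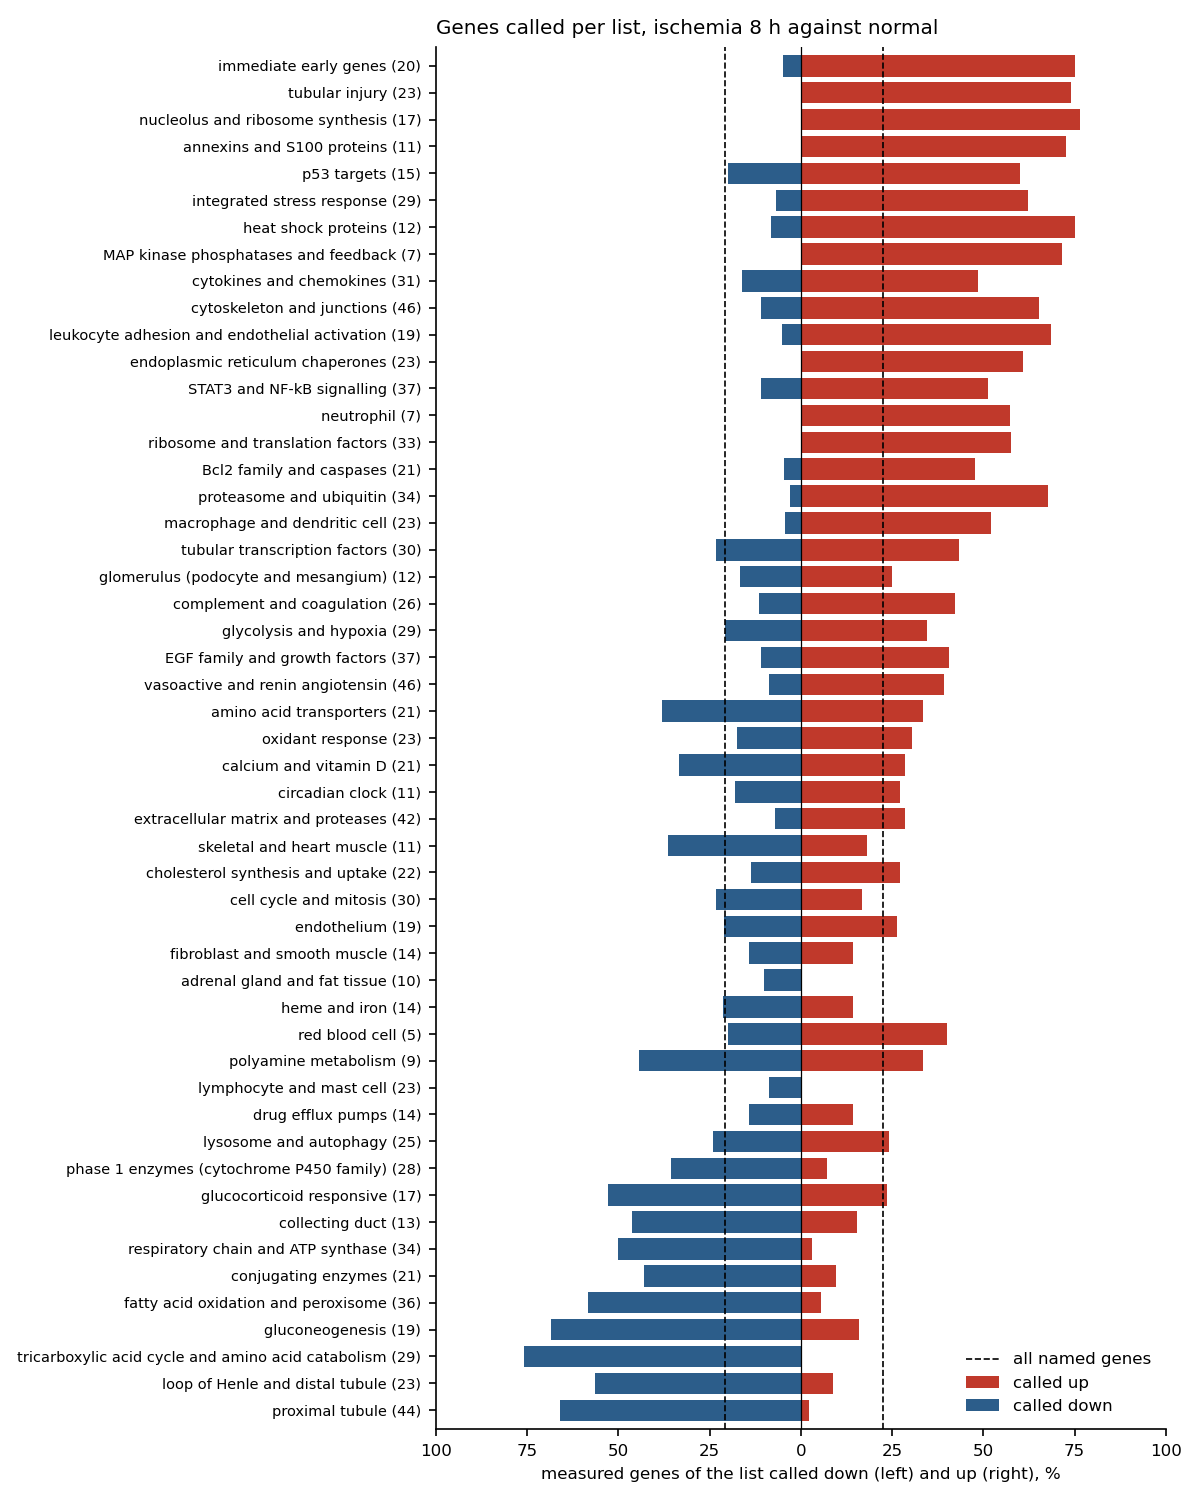
Share of the measured genes of each of 51 lists called up (right) or down (left) in ischemia 8 h against normal, with the number measured in brackets, ordered by median change from the lowest at the bottom. Dashed lines mark the shares among all named genes, 22.6% up and 20.9% down, and the endothelium list, with 5 of 19 up and 4 of 19 down, lies near both.

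Markers of other cells that the tissue could hold were counted as well. Of 19 endothelial genes 5 rose and 4 fell, with 3 up without normal rat 3, and the receptor Kdr was at 0.08 (adjusted p = 0.837) while Tie1 fell by 0.76 ± 0.14. Of 14 fibroblast and smooth muscle genes 2 rose and 2 fell. Of these genes 4 fell without ischemic rat 3 and 1 without ischemic rats 1 or 2 or normal rat 1. The list had summed levels of 42.0 to 53.4 in ischemic rats and 38.0 to 44.9 in normal rats. Of 12 glomerular genes 3 rose and 2 fell, and the podocyte factor Wt1 was at 0.30 (adjusted p = 0.119), or 0.42 without normal rat 3 (adjusted p = 0.0477). Of 10 genes of adrenal gland and fat, tissues that lie against the kidney, none rose and 1 fell (none fell with any rat but ischemic rat 3 left out, and 2 rose without ischemic rats 1 or 2 or normal rat 1), and summed levels were 5.80 to 8.25 in ischemic rats and 5.63 to 7.73 in normal rats. The summed level of 11 muscle genes was 41.0 to 57.1 in ischemic rats and 19.5 to 22.4 in normal rats. Of these genes 2 rose and 4 fell, with a median change of 0.11, so the sum does not stand for the list as a whole. The 2 that rose were Cryab, which is also on the heat shock list, and Csrp3. Csrp3, a muscle LIM protein, was at least 8.51-fold higher in ischemic rats than in normal rats, where it was at the floor.

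**Figure D5:**
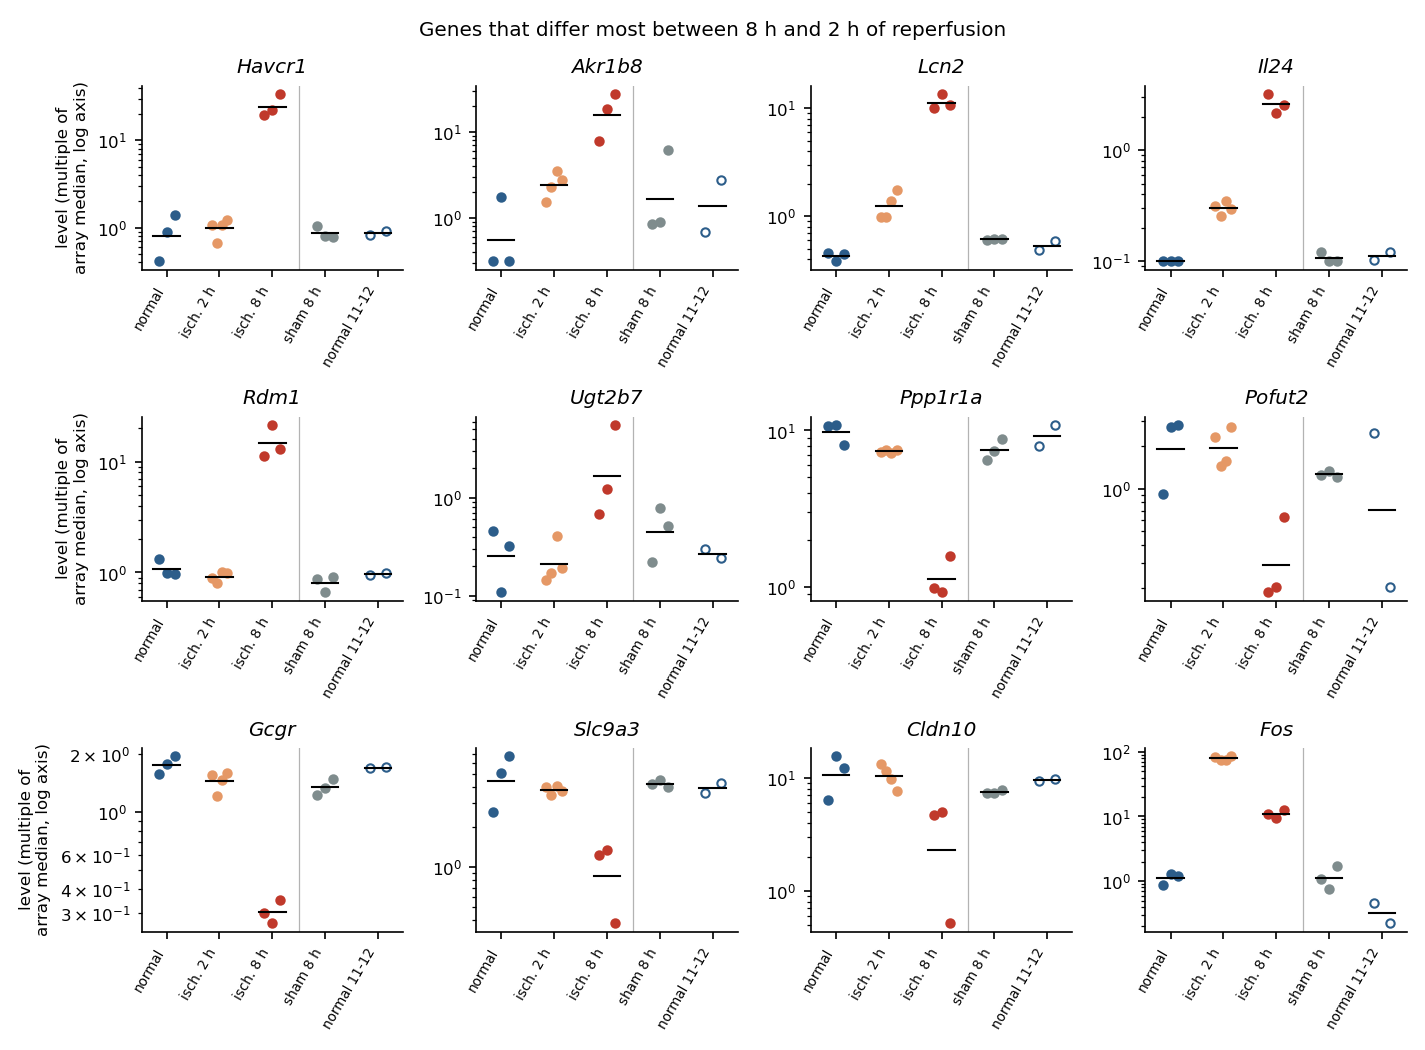
Levels per rat, as multiples of the array median on log axes, of the 12 genes that differ most between 8 h and 2 h of reperfusion, in normal rats 1 to 3, ischemia 2 h and ischemia 8 h, and to the right of the grey line in sham rats and normal rats 11 and 12, whose arrays form another lot. The 12 were taken only from genes that also passed against normal at 8 h. Black bars are means of log2 levels, and in Havcr1, Rdm1, Ppp1r1a and Gcgr the 2 h rats lie near the normal rats and the 8 h rats far from them.

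The 8 h kidneys differed from the 2 h kidneys at 3580 of 9489 probes (37.7%), 1947 higher and 1633 lower. The 12 genes picked for this difference had to pass against normal at 8 h as well, so genes back at normal by 8 h could not appear. Of these 12, 6 were higher at 8 h. Havcr1 was at 19.6, 22.0 and 33.6 in the 8 h rats, against 1.08, 0.669, 1.07 and 1.21 in the 2 h rats, a difference of 4.63 ± 0.39 (adjusted p = 1.94e-09). Rdm1 was at 11.3, 21.2 and 12.9 in the 8 h rats and 0.901, 0.802, 1.01 and 0.982 in the 2 h rats (3.99 ± 0.20, adjusted p = 9.71e-13). Neither gene passed against normal at 2 h (adjusted p = 0.710 for Havcr1 and 0.513 for Rdm1). Lcn2 was at 10.1, 13.4 and 10.7 in the 8 h rats, against 0.990, 0.988, 1.38 and 1.73 in the 2 h rats (3.19 ± 0.22, adjusted p = 6.15e-11), and Il24 differed by 3.11 ± 0.20. These 2 genes had risen at 2 h already, by 1.53 and 1.59 against normal. Akr1b8 differed by 2.73 ± 0.94, which did not pass without ischemia 8 h rat 3 (adjusted p = 0.0907), ischemia 8 h rat 2 (0.0579) or ischemia 2 h rat 1 (0.0608). The glucuronosyltransferase Ugt2b7 differed by 2.99 ± 0.59, or 2.12 without ischemia 8 h rat 3 and 3.63 without ischemia 8 h rat 1.

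Of the 6 genes lower at 8 h than at 2 h, Fos stood above normal at both times, with 11.1, 9.61 and 12.6 in the 8 h rats, against 81.8, 75.6, 75.6 and 85.2 in the 2 h rats (-2.85 ± 0.66, adjusted p = 0.00129). The other 5 did not pass against normal at 2 h. All 5 fell at 8 h, where a call against normal was required by the way they were picked. Ppp1r1a was at 0.975, 0.920 and 1.57 in the 8 h rats and 7.25, 7.52, 7.15 and 7.55 in the 2 h rats (-2.72 ± 0.16, adjusted p = 1.15e-11). Gcgr was at 0.300, 0.267 and 0.352 in the 8 h rats, against 1.56, 1.21, 1.47 and 1.60 in the 2 h rats (-2.25 ± 0.13, adjusted p = 7.74e-12). Slc9a3 differed by -2.15 ± 0.31, or -1.57 without ischemia 8 h rat 3, Pofut2, an enzyme that adds fucose to secreted proteins, by -2.77 ± 0.75, and Cldn10 by -2.18 ± 0.48, or -1.10 without ischemia 8 h rat 3. Hspa1a was high at both times, with 82.8, 96.4 and 84.8 in the 8 h rats and 91.4, 88.7, 99.6 and 97.0 in the 2 h rats, a difference of -0.10 ± 0.32 (adjusted p = 0.836). Both times share the same 3 normal rats, and among all named genes 22.6% rose and 20.9% fell at 8 h, while 8.00% rose and 6.09% fell at 2 h. The counts per list were 29 and 2 genes down for the proximal tubule at 8 h and 2 h, 22 and 0 down for the cycle with amino acid catabolism, 21 and 1 down for fatty acid oxidation, 23 and 1 up for the proteasome, and 15 and 17 up for immediate early genes.

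Because sham arrays belong to another lot, the surgery control was the change in ischemic rats from normal rats 1 to 3 minus the change in sham rats from normal rats 11 and 12, and 2152 of 9385 probes (22.9%) passed. Hspa1a was at 82.8, 96.4 and 84.8 in ischemic rats, against 2.16, 2.35 and 2.32 in sham rats and 1.13 and 1.15 in normal rats 11 and 12, and the difference of the changes was 4.87 ± 0.52 (adjusted p = 3.66e-07). Pvr was at 4.57, 4.47 and 6.30 in ischemic rats, against 0.392, 0.418 and 0.335 in sham rats and 0.300 and 0.306 in normal rats 11 and 12 (4.49 ± 0.33, adjusted p = 2.63e-09). Every sham rat lay above normal rats 11 and 12 in both genes, by an amount that did not pass (adjusted p = 0.583 for Hspa1a and 1.00 for Pvr). Havcr1 (4.94 ± 0.62), Il24 (4.77 ± 0.32) and Lcn2 (4.53 ± 0.35) passed too. Akr1b8 (4.57 ± 1.5, adjusted p = 0.0282) lost its call without any of normal rats 1, 3 or 12 or sham rats 1 or 2, and was 3.56 without normal rat 12, 5.39 without normal rat 2, 5.51 without sham rat 3 and 5.58 without normal rat 11. Below the sham change were Ppp1r1a (-2.82 ± 0.26), the glutamine carrier Slc38a3 (-2.69 ± 0.37), Slc16a7 (-2.65 ± 0.25) and Slc9a3 (-2.51 ± 0.50, or -1.92 without ischemic rat 3). Slc38a3, which brings glutamine to the proximal tubule for ammonia production, was at 0.868, 0.948 and 0.827 in ischemic rats, against 3.74, 3.27 and 5.61 in sham rats and 3.15 and 1.90 in normal rats 11 and 12. Casr differed by -2.91 ± 0.48, or -3.49 without ischemic rat 3. Pofut2 differed by -3.58 ± 1.21, but its levels in normal rats 11 and 12 were 2.49 and 0.202. It lost its call without ischemic rats 1 or 2, normal rats 2, 3 or 12 or any sham rat, and the difference was -1.76 without normal rat 12 and -5.39 without normal rat 11.

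The remaining large falls are on no list or on lists not yet described. Tle2, a co-repressor of the Groucho family, had 0.349, 0.333 and 0.422 in ischemic rats, against 1.37, 2.13 and 2.04 in normal rats (-2.31 ± 0.18, adjusted p = 2.69e-10). Dapl1 had 0.231, 0.265 and 0.795 in ischemic rats and 1.88, 1.60 and 1.94 in normal rats (-2.30 ± 0.29, adjusted p = 7.22e-07). Crocc, rootletin of the ciliary rootlet, had 0.490, 0.534 and 0.644 in ischemic rats, against 3.29, 2.07 and 2.76 in normal rats (-2.27 ± 0.25, adjusted p = 7.52e-08). These 3 genes were picked without overlap, and ischemic rat 3 was nearest to normal in each. Sfrp2, a secreted inhibitor of Wnt signalling, changed by -2.28 ± 0.34, or -2.96 without ischemic rat 3. Ppp2r2d, a regulatory subunit of phosphatase 2A, was at or near the floor in ischemic rats (0.1, 0.102 and 0.1), against 0.523, 0.638 and 1.39 in normal rats, and its change of -2.94 ± 1.11 passed with all rats (adjusted p = 0.0353) but not without ischemic rat 3 (0.0618), ischemic rat 1 (0.0650), ischemic rat 2 (0.0645), normal rat 2 (0.0604) or normal rat 3 (0.120).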

How the data were processed

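The series used 36 CodeLink arrays for kidney RNA of 31 rats, biotin-labelled by the CodeLink standard protocol per the labels' protocols. The sources used here name neither scanner software nor background correction. The values deposited are on an unusual scale, on which each is 2 raised to an intensity that the authors had scaled to about its array median, with 0.5 for a missing spot, as read from the values (100% of the exponents were whole multiples of 0.0001, within 1e-06). The deposited values were therefore turned back by log2, divided by the array median, set to at least 0.1 and taken to log2. The array of sham rat 3 was moved by 2 lines, which raised its correlation with the median of all other arrays to 0.984 from 0.0652. Arrays of 1 rat were averaged. All 31 rats in 10 groups entered 1 limma fit (3.58.1, R 4.3.3), with Benjamini-Hochberg adjustment over all probes tested, so the spread of all groups is shared. The labels call the rats separate samples of a group. The p-values rest on the spread between rats within groups, pooled over the 10 groups, and not on that of the compared rats alone. The median over probes of the standard deviation of log2 levels was 0.359 between the 8 h rats and 0.198 between normal rats 1 to 3. The series' design text states that 24 arrays came from 1 lot and 12 from another, and missing probes split the arrays the same way: 47 probes were missing on all 12 arrays of sham, normal 11 and 12, cisplatin and 8 h mercuric chloride rats and on none of the other 24. Which array belongs to which lot was thus read from the values, and not from a label. Probes were named through the platform annotation and RefSeq, and a gene with several probes is given by its brightest. Named genes were the 15 largest rises and falls without overlap, examples from 51 gene lists, and the largest differences from 2 h and from sham. Genes picked for their difference from 2 h had to pass against normal at 8 h too. Members, lists and tests were chosen with earlier results of these data known. The fit was also run on simulated data, with the same spread in every group and no outlying array. That run therefore cannot show how ischemic rat 3 affects the calls. Figures were drawn with matplotlib 3.10.9.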

Additional observations from a re-analysis of the deposited data

Results flagged for a closer look

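The change from normal differed between 8 h and 2 h of reperfusion for the 12 genes picked for that difference, each by limma's test of the difference, with adjusted p over all probes. The 6 genes higher at 8 h were Havcr1 (4.63, adjusted p = 1.94e-09), Rdm1 (3.99, adjusted p = 9.71e-13), Lcn2 (3.19, adjusted p = 6.15e-11), Il24 (3.11, adjusted p = 3.28e-11), Ugt2b7 (2.99, adjusted p = 2.92e-04) and Akr1b8 (2.73, adjusted p = 0.0239). The 6 genes lower at 8 h were Fos (-2.85, adjusted p = 0.00129), Pofut2 (-2.77, adjusted p = 0.00515), Ppp1r1a (-2.72, adjusted p = 1.15e-11), Gcgr (-2.25, adjusted p = 7.74e-12), Cldn10 (-2.18, adjusted p = 8.41e-04) and Slc9a3 (-2.15, adjusted p = 7.51e-06). Values are log2 levels at 8 h minus those at 2 h, and all 12 genes were picked among those that passed against normal at 8 h. Without ischemia 8 h rat 3 the difference was 2.12 for Ugt2b7, -1.10 for Cldn10 and -1.57 for Slc9a3, and that of Akr1b8 did not pass (adjusted p = 0.0907).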

How the results depend on the processing

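Over 29 other settings, 5583 values were recomputed for 297 differences that passed with all rats, 273 of them against normal. Of these 5583 values none changed direction, 5050 also stayed on their side of the threshold, and 533 lost their call. Genes that did not pass with all rats were not followed there, and some of them change sign or gain a call when 1 rat is left out, as given with their values. The number of probes called depended on which groups shared the estimate of spread. With the spread taken from the compared groups alone, 797 probes rose and 690 fell against normal, 888 were higher and 744 lower than at 2 h, and 620 were above and 495 below the sham change. With the replicate block in those groups, 282 rose and 157 fell against normal, and 315 were higher and 204 lower than at 2 h. The labels give numbers to rats but no pairing, and deviations of same-numbered ischemic and normal rats correlated at -0.59, 0.492 and -0.396. No paired fit was made for the sham comparison, whose normal rats carry other numbers. With sham rat 3 as deposited, 702 rose and 608 fell against normal, 540 were higher and 422 lower than at 2 h, and 310 were above and 190 below the sham change. Only probes above the array median gave 1233 up against normal, 1235 up against 2 h and 740 above the sham change, from fewer probes tested. Array weights gave 1913 above and 2155 below the sham change, and the direct difference from sham rats, across lots, gave 2256 and 2075. Leaving out each rat in turn gave 1591 to 2192 up and 1740 to 2509 down against normal, 1651 to 2320 up and 1414 to 1968 down against 2 h, and 762 to 1294 above and 714 to 1642 below the sham change. The highest number below the sham change, 1642, came without ischemic rat 3. Leaving out ischemic rat 3 and normal rat 1 together, chosen after seeing the data, gave 1889 up and 2259 down against normal. The cause of these moves was not tested. Probes at the floor limit the size of a change, and background signal was not given.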
